A study of Homo sapiens with 3 samples.

Results

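Type I interferon-stimulated genes were examined in MDA-MB-231, a human cell line from a breast tumour, after 3 h with a peptide, a hormone or vehicle. The members are 38 genes chosen by symbol as classical targets of type I interferon. A gene was measured where at least 1 probe set on the array was paired with its symbol and with no other. This gave 37 of the 38 members, out of 19775 genes in all. STAT2, a subunit of the factor that interferon activates, was not analysed here. Of the 37, 18 had 1 probe set and 19 had 2 or more, 61 probe sets together, and a gene's value was the median of its probe sets.

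Type I interferons are secreted cytokines that cells make when they sense viral or displaced nucleic acid. They bind the receptor IFNAR1 and IFNAR2, the kinases JAK1 and TYK2 phosphorylate STAT proteins, and a complex of these with IRF9 binds a DNA element, the interferon-stimulated response element (ISRE), near the genes it switches on. The products bind viral RNA, degrade RNA, block viral entry and budding, or feed back on the pathway. In breast cancer cells the same genes are known as an interferon signature that can be present without infection.

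The groups were cells given ERα17p at 1 µM, cells given estradiol at 1 µM and cells given 0.1% ethanol as vehicle, with 1 Affymetrix HG-U133 Plus 2 array each. ERα17p is a synthetic peptide that copies a stretch of oestrogen receptor alpha, and estradiol is that receptor's natural hormone. Before treatment, all cells had been kept for 4 h with 10% charcoal-stripped serum, from which most steroids have been removed. Only the 3 h time was analysed here. Which solvent carried the peptide or the estradiol was not stated in the labels. With 1 array a group, no difference has a replicate check, no test can be made, and the precision is limited by the number of arrays. In lysates of whole cultures, fewer cells with an RNA and less of it per cell cannot be told apart.

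The deposited values were centred log2 values. The level on which each probe set had been centred is not described, so a value of 0 means that reference and not absence of the RNA. Expression levels and detection are unknown, and the cell line could not be checked by the level of its markers. Differences between arrays remain. Differences of at least 1.5-fold (0.585 on the log2 scale) are called higher or lower in what follows.

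The vehicle array differed from both treated arrays in the control RNA added to the samples. Labelling spikes, bacterial transcripts put into the RNA before labelling, had a median centred value of 0.21 with ERα17p, 0.20 with estradiol and -1.60 with vehicle. Hybridisation spikes, added later, were at -0.06 with ERα17p, 0.09 with estradiol and 0.89 with vehicle. Centred values also spread more widely on the vehicle array, with an SD over probe sets of 0.241 for ERα17p and 0.260 for estradiol, against 0.494 for vehicle. The comparison of ERα17p with estradiol leaves the vehicle array out and is therefore given first. Between those arrays the labelling spikes differed by 0.00 and the hybridisation spikes by -0.15, while 18S ribosomal RNA was 0.53 higher with ERα17p. For ACTB, the 3′ minus 5′ difference, which moves with RNA integrity, was 0.31 with ERα17p and -0.27 with estradiol, and for GAPDH it was 0.15 with ERα17p and 0.06 with estradiol. The part of these in the results was not tested.

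Most of the members had a lower value with ERα17p than with estradiol, and a smaller number passed 1.5-fold; differences are on the log2 scale. Of 37 members, 34 were below 0 in ERα17p minus estradiol, against 52.7% of all genes, and 3 were above 0, against 46.8%. Their median difference was -0.36, and that of all genes -0.01. By at least 1.5-fold, 8 members were lower, against 2.06% of all genes, and 0 were higher, against 1.25%. The count was 13 with arrays scaled to equal SD, against 4.75% of all genes, 14 after quantile normalisation, against 4.53%, and 3 among the 19 members with 2 or more probe sets, against 0.846% of all genes with as many. The 8 were IFIT1, SAMD9L, OASL, MX1, OAS1, DDX60, IRF9 and TRIM22. At 2-fold, 1 member, IFIT1, was lower, against 0.212% of all genes, and 0 were higher, against 0.0354%. The members lay between 0.12 for PARP14 and -1.06 for IFIT1.

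On the ERα17p array the members had a median centred value of 0.04 and a range of -0.46 to 0.51. On the estradiol array the median was 0.38, the range -0.25 to 1.18, and 12 members lay at least 1.5-fold above the reference level. No member did so on the ERα17p array. On the vehicle array the median was -0.27, with members spread from -2.10 to 1.17. The estradiol array held the highest of the 3 values for 28 members, against 32.5% of all genes. The order estradiol, then ERα17p, then vehicle was seen for 26 of 37 members (70.3%), against 21.8% of all genes.

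**Figure D1:**
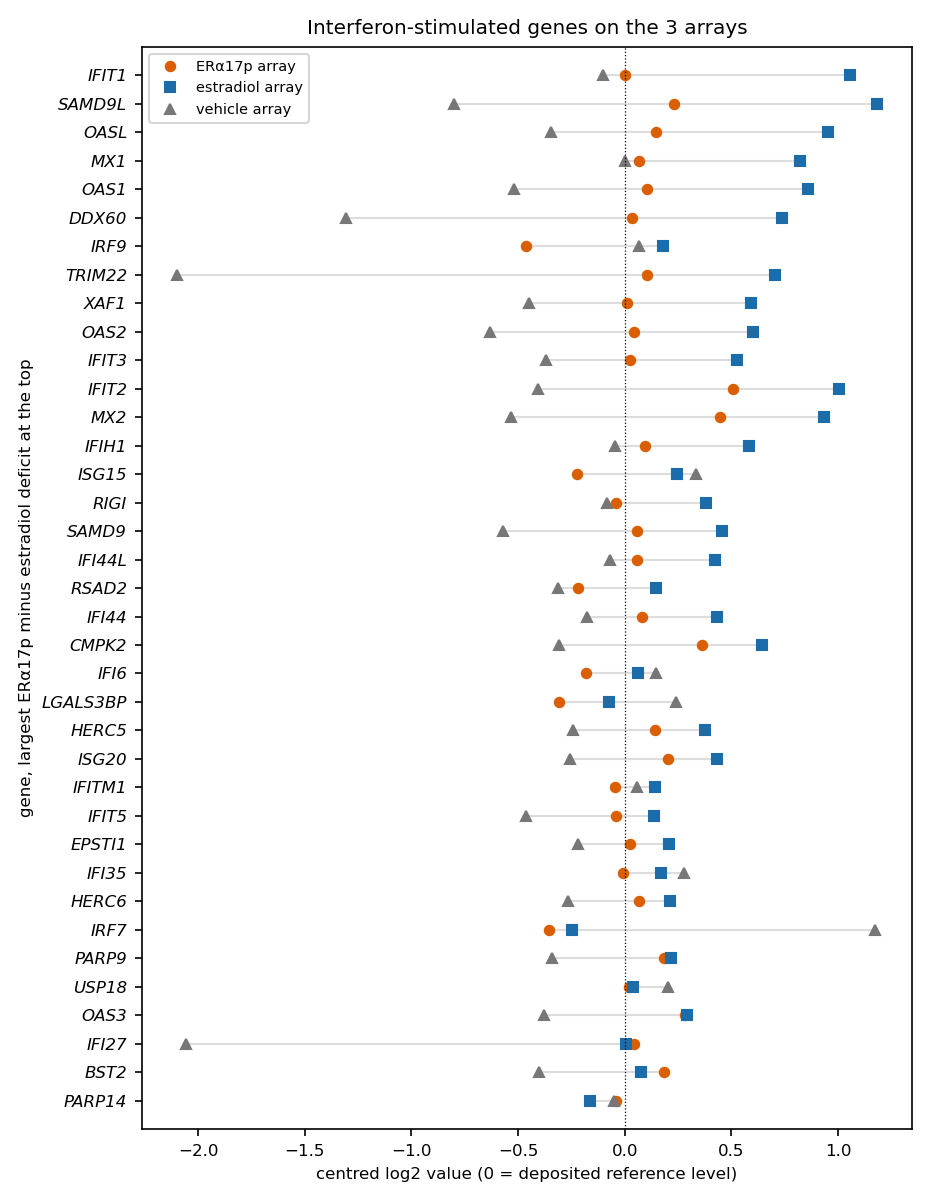
Centred log2 value (x axis; 0 is the deposited reference level) of the 37 measured members (rows) on the ERα17p array (circles), the estradiol array (squares) and the vehicle array (triangles), 1 array each, with the lowest ERα17p minus estradiol difference at the top. Squares lie to the right of circles for 34 members, and IFIT1 has the widest gap between them, -1.06.

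The IFIT proteins, which bind viral RNA and hold back its translation, were all 4 below 0 in ERα17p minus estradiol, with a median of -0.50. IFIT1, which recognises RNA caps that lack a methyl mark, was at 0.00 with ERα17p, 1.06 with estradiol and -0.10 with vehicle, so ERα17p was 2.08-fold below estradiol and 0.10 above vehicle on the log2 scale. IFIT2, an inhibitor of translation, was at 0.51 with ERα17p and -0.41 with vehicle, and stood highest with estradiol, at -0.50 in ERα17p minus estradiol. IFIT3, which binds IFIT1 and stabilises it, was at 0.02 with ERα17p, 0.52 with estradiol and -0.37 with vehicle. IFIT5 differed least, by -0.18 in ERα17p minus estradiol.

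All 4 genes of the oligoadenylate synthetase family, which senses double-stranded RNA and switches on RNase L, were below 0 in ERα17p minus estradiol, and 2 were past 1.5-fold. OASL, the family member without synthetase activity, was at 0.15 with ERα17p, 0.95 with estradiol and -0.35 with vehicle, a difference of -0.81 between the treated arrays. OAS1, itself a synthetase, was at 0.11 with ERα17p, 0.86 with estradiol and -0.52 with vehicle, a difference of -0.75 between the treated arrays. OAS2 was at -0.56 in ERα17p minus estradiol, short of 1.5-fold, with its 3 probe sets between -0.56 and -0.38. OAS3 stood at 0.28 with ERα17p and 0.29 with estradiol, and its probe sets went opposite ways, at -0.24 and 0.22. With arrays scaled to equal SD, OAS3 was above 0, at 0.014.

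The MX proteins are dynamin-like GTPases that trap viral nucleocapsids. MX1 was at 0.07 with ERα17p, 0.82 with estradiol and 0.00 with vehicle, so the estradiol array stood apart from the other 2. MX2, which acts on retroviral capsids, was at 0.45 with ERα17p, 0.94 with estradiol and -0.53 with vehicle, with the ERα17p array between the others. The difference between the treated arrays was -0.75 for MX1 and -0.49 for MX2.

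The 3 RNA sensors had a median of -0.48 in ERα17p minus estradiol. DDX60, a helicase that promotes RIGI signalling, was at 0.03 with ERα17p, 0.74 with estradiol and -1.31 with vehicle, a difference of -0.70 between the treated arrays. RIGI and IFIH1, which detect viral RNA in the cytosol, differed by -0.42 and -0.48. RIGI was at -0.76 and past 1.5-fold when probe sets matching several transcripts were left out. The 3 probe sets of IFIH1 ran from -0.61 to 0.22, and its value was -0.29 with their mean. SAMD9L, an antiviral protein that restricts translation, was at 0.23 with ERα17p, 1.18 with estradiol and -0.80 with vehicle, and its neighbour SAMD9 at 0.06 with ERα17p, 0.45 with estradiol and -0.57 with vehicle. The estradiol array was highest for both, with differences of -0.95 and -0.40 between the treated arrays.

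Of the transcription factors, IRF9, which gives the interferon-activated complex its DNA binding, was at -0.46 with ERα17p, 0.18 with estradiol and 0.07 with vehicle. The ERα17p array was thus the low one for IRF9, by -0.64 against estradiol and -0.53 against vehicle. IRF7, the factor that amplifies interferon production, differed by -0.11 between the treated arrays. TRIM22, an antiviral ubiquitin ligase, was at 0.10 with ERα17p, 0.70 with estradiol and -2.10 with vehicle, and so just past 1.5-fold between the treated arrays (-0.60).

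The ISG15 system attaches the ubiquitin-like ISG15 to proteins. ISG15 was at -0.22 with ERα17p, 0.24 with estradiol and 0.34 with vehicle. The ligase HERC5 was at -0.23 in ERα17p minus estradiol, its relative HERC6 at -0.15, and USP18, which removes ISG15 and damps the receptor, at -0.02. Between the treated arrays, XAF1, a pro-apoptotic antagonist of XIAP, was at -0.581, a little short of 1.5-fold. Its 3 probe sets disagreed, at -0.67, -0.17 and 0.21, and XAF1 was at -0.21 with the mean of probe sets and -0.17 with the median of their differences. RSAD2 (viperin), which makes a chain-terminating nucleotide, differed by -0.36, and CMPK2, a mitochondrial nucleotide kinase, by -0.28.

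None of the remaining members passed 1.5-fold between the treated arrays. IFI44 and IFI44L were at -0.35 and -0.37 in ERα17p minus estradiol, with IFI44 at 0.10 when its probe set that matches several transcripts was left out. In the same comparison the mitochondrial protein IFI6 was at -0.24, the secreted glycoprotein LGALS3BP at -0.23, and the exonuclease ISG20 at -0.23. IFITM1, which blocks viral fusion, was at -0.19, EPSTI1 at -0.18 and IFI35 at -0.18. PARP9, a partner of the ubiquitin ligase DTX3L, was at -0.03. The 3 members above 0 were IFI27 at 0.03, BST2 (tetherin), which holds budding virions at the membrane, at 0.11, and PARP14, an ADP-ribosyltransferase, at 0.12.

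**Figure D2:**
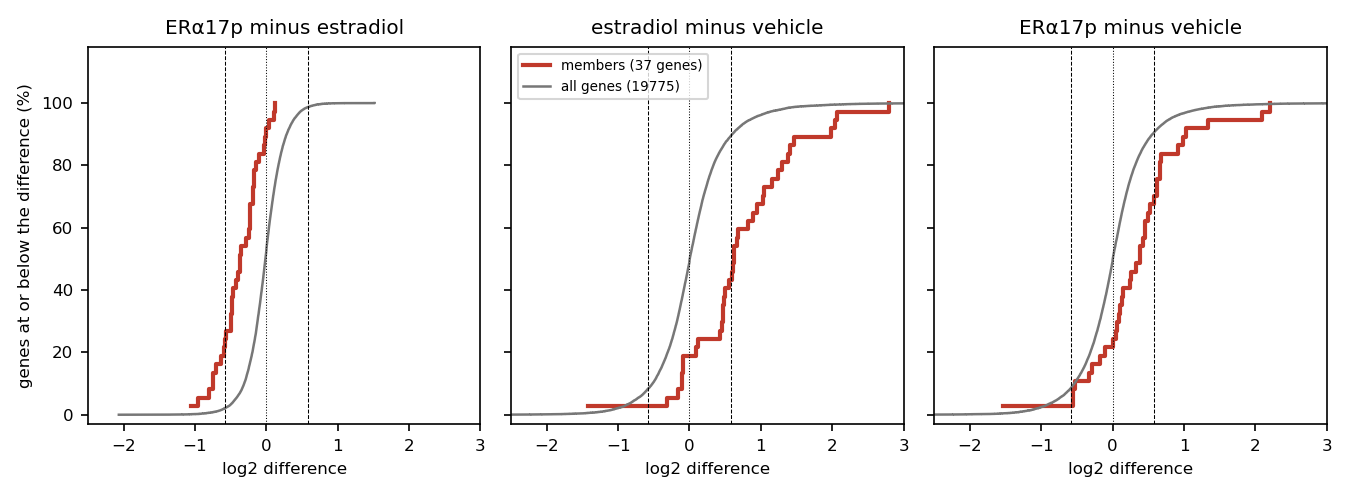
Percentage of genes (y axis) at or below a given log2 difference (x axis) for the 37 members (thick red line) and all 19775 genes (thin grey line) in the 3 comparisons; dashed lines mark 1.5-fold and the dotted line 0. The member line lies left of all genes for ERα17p minus estradiol (median -0.36) and right of it through most of its range for estradiol minus vehicle (0.62) and ERα17p minus vehicle (0.39).

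Single probe sets gave the same picture with more scatter. Of 61 member probe sets, 51 were below 0 in ERα17p minus estradiol, against 51.4% of all probe sets, 16 were at least 1.5-fold lower, against 3.27% of all probe sets, and 0 higher, against 3.61%. Among the 19 members with 2 or more probe sets, all probe sets lay below 0 for 11, and for 8 they went both ways. SAMD9L had probe sets at -1.11, -1.01 and 0.00. IFI44 had a probe set at -0.80 and another at 0.10, and the first carries an ID that marks matches to several transcripts. Of the 61 probe sets, 14 carry such an ID, among them every probe set of DDX60, TRIM22, ISG15, IRF7, IFITM1, IFI35 and IFIT5.

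**Figure D3:**
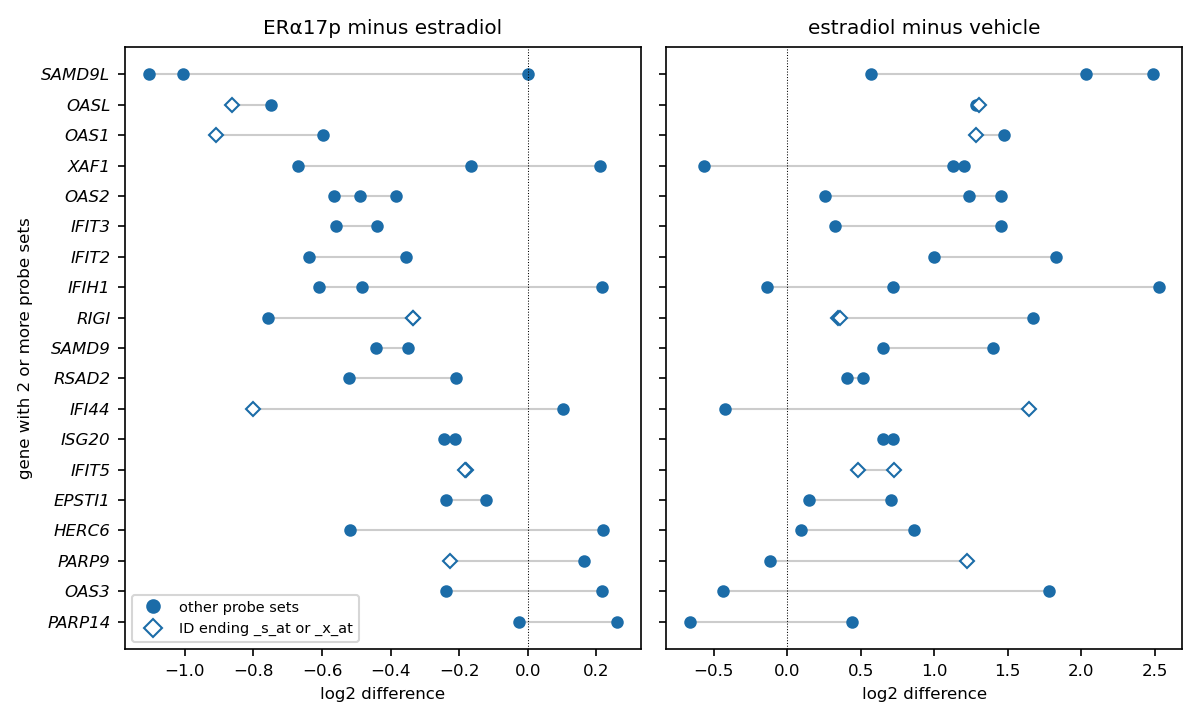
Log2 difference (x axis) of each probe set of the 19 members with 2 or more probe sets (rows), for ERα17p minus estradiol on the left and estradiol minus vehicle on the right; open diamonds have IDs ending in _s_at or _x_at, which match several transcripts. OASL and OAS1 keep all probe sets below 0 on the left, while IFI44, OAS3 and PARP14 straddle 0 in both panels.

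Many members are neighbours in the genome, in the protein-coding gene order of RefSeq. The pairs IFIT2 and IFIT3, and IFIT1 and IFIT5, lie on chromosome 10, OAS1, OAS3 and OAS2 follow each other on chromosome 12, and MX2 and MX1 lie on chromosome 21. Others are CMPK2 and RSAD2 on chromosome 2, HERC6 and HERC5 on chromosome 4, SAMD9 and SAMD9L on chromosome 7, and IFI44L and IFI44 on chromosome 1. Neighbours could differ in ERα17p minus estradiol. IFIT1 was at -1.06 beside IFIT5 at -0.18, and OAS1 at -0.75 beside OAS3 at -0.01. IFI44L and IFI44 differed from each other by little, at -0.37 and -0.35.

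Promoter sequence was compared because the members are defined by a shared response. RefSeq promoters (GRCh38.p14, 250 bases before to 50 after a start site) were found for 31 of the 38 members, some with several start sites. The ISRE was searched on both strands as GAAA, any 2 bases, then GAAA. It was in at least 1 promoter of 22 of the 31 members (71.0%), against 4.38% of all 27305 genes in the table, or 3.57% of its promoters. A stricter form with CT added at its end, which contains the first motif, was in 14 members (45.2%), against 0.322% of all genes. The element of STAT dimers, TTCNNNGAA (GAS), was in 10 members (32.3%), against 9.38% of all genes, and in 5 of the 10 it overlapped an ISRE match. The palindromic oestrogen response element, searched as GGTCA, any 3 bases, then TGACC, was in 0 of 31 members and in 0.0732% of all genes. A match is a description of letters and not of a bound site, and no match says only that these letters are not in the window.

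The 6 stretches below are the 160 bases before the start site, 5′ to 3′ on the gene's strand, with ISRE matches in capitals. They were picked to set promoters with like motifs beside unlike differences: IFIT1 and DDX60 were lower with ERα17p, ISG15 and IFI6 less so, IFI27 was level between the treated arrays, and SAMD9L, among the lowest, has no match.
IFIT1, chr10:89392463-89392622, strand plus: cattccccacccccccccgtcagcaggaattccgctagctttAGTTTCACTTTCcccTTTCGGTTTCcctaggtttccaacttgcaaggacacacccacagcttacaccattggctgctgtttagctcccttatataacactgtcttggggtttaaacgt
DDX60, chr4:168318753-168318912, strand minus: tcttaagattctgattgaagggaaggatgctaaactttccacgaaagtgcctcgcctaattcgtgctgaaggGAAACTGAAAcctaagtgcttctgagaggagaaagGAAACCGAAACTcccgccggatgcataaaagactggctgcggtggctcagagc
ISG15, chr1:1013337-1013496, strand plus: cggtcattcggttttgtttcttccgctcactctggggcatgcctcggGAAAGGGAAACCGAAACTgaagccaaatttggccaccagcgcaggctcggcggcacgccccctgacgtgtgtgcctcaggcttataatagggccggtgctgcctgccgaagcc
IFI6, chr1:27672193-27672352, strand minus: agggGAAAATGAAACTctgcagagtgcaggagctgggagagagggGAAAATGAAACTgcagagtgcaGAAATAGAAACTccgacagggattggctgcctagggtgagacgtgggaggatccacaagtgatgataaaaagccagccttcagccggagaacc
IFI27, chr14:94110576-94110735, strand plus: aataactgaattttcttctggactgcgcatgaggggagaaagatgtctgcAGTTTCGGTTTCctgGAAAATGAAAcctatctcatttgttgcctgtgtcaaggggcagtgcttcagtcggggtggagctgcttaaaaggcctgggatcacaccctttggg
SAMD9L, chr7:93148386-93148545, strand minus: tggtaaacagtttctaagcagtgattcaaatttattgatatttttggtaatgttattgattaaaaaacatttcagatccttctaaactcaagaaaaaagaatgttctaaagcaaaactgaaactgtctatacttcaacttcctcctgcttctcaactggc

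IFIT1 has matches from -118 to -107 and from -103 to -94, counted from the start site, on the minus strand. IFI6 has 3 of the strict matches, and its difference was -0.24. IFI27 has matches on opposite strands, and its difference was 0.03.

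An exact match did not go with a larger ERα17p minus estradiol difference among members. Few members lack a match, and SAMD9L, counted among them, holds a stretch that departs from the strict form only in its first base. The split therefore cannot tell members with a working element from members without one. The 22 measured members with an ISRE had a median ERα17p minus estradiol of -0.24, with 3 at least 1.5-fold lower, and the 8 without one had a median of -0.50, also with 3 lower. Outside the members, 591 measured genes had an ISRE match in a promoter. Their median was -0.01, and 2.03% were at least 1.5-fold lower, against 1.87% of 14763 genes with a promoter and no match. With the strict form, 40 other genes had a median of -0.01. Of these, 2 (5%) were at least 1.5-fold lower, against 1.87% of genes with a promoter and no strict match. These 2, named after their values were seen, were DDX60L, a paralogue of DDX60 (-0.81), and IFNL1, an interferon lambda (-0.59). In estradiol minus vehicle, 9 of the 40 (22.5%) were at least 1.5-fold higher, against 10.8% of genes without a strict match. For the 591 genes with an ISRE match the share was 11.3%, against 10.8% without one. Among the 9, RTP4 (1.24), HLA-F (1.10), DTX3L (0.74) and B2M (0.72) are also in the further list of interferon-stimulated genes below. The 2 counts overlap, so the share of the 40 does not stand for genes outside the interferon response.

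**Figure D4:**
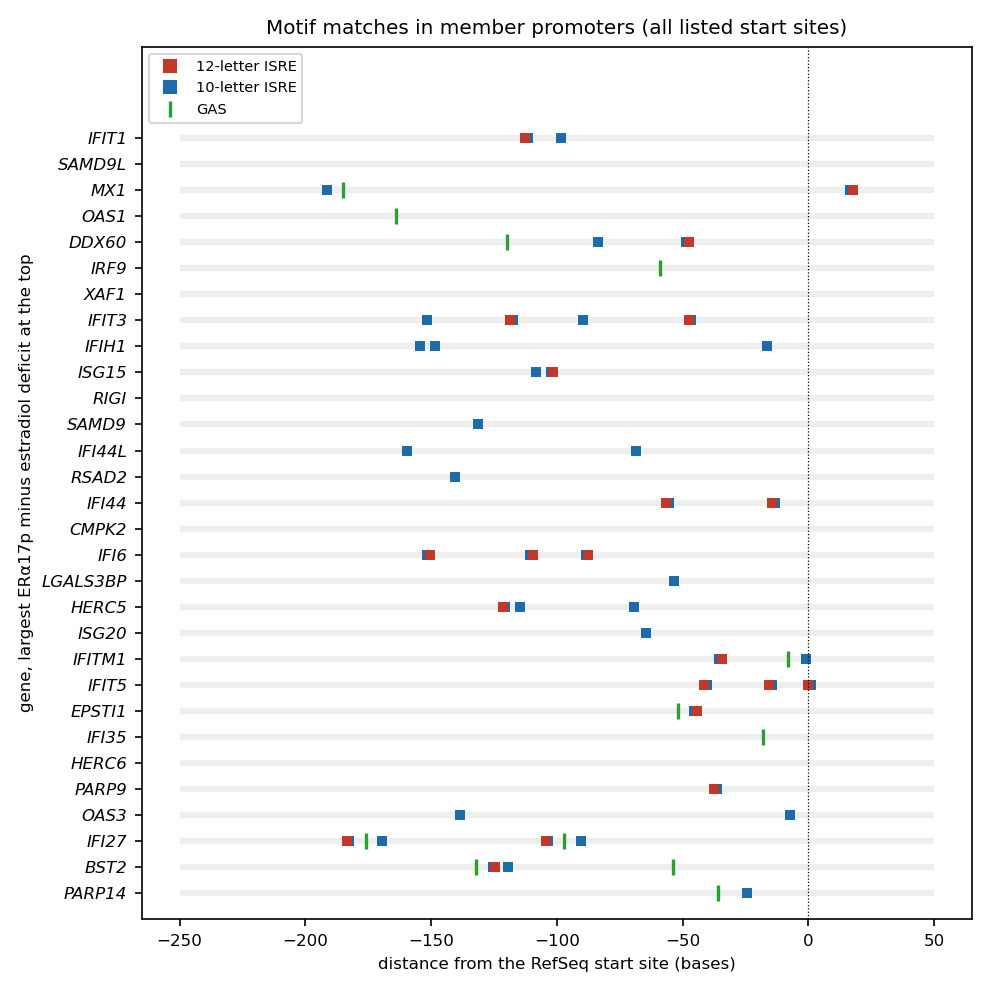
Position of motif matches relative to the RefSeq start site (x axis, bases) in the promoters of the 30 measured members with a promoter sequence (rows, lowest ERα17p minus estradiol at the top), with matches from all listed start sites of a gene on 1 row: strict ISRE (red squares), ISRE (blue squares) and GAS (green bars). SAMD9L has no match near the top (-0.95), and BST2 and IFI27 have several near the bottom (0.11 and 0.03).

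Upstream genes of the pathway had medians nearer to 0 than that of the members. Of 17 measured interferon genes, 1 was at least 1.5-fold lower in ERα17p minus estradiol (IFNL1, -0.59), against 2.06% of all genes. In the same comparison 1 was higher (IFNA10, 0.95), against 1.25%. The median was -0.02 and the mean 0.10. IFNB1, the interferon most cells make first, was at 0.34 with ERα17p, 0.36 with estradiol and -0.11 with vehicle. IFNA7 and IFNA1 were at 0.53 and 0.48. Alpha interferon genes are near copies of each other, so which of them a probe set measured is uncertain.

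Receptors and proximal signalling had 0 of 7 past 1.5-fold in ERα17p minus estradiol, against 2.06% of all genes lower and 1.25% higher. Their median was -0.14. IFNAR1 was at -0.22, IFNAR2 at -0.08, JAK1 at 0.04, TYK2 at -0.14 and IRF1 at 0.00, while the lambda receptor chains IFNLR1 and IL10RB were at -0.30 and -0.22. Of 11 sensing and induction genes, 1 was at least 1.5-fold lower, against 2.06% of all genes, and 0 were higher, against 1.25%. It was TLR3, an endosomal receptor for double-stranded RNA, at 0.12 with ERα17p, 1.03 with estradiol and -0.31 with vehicle. Its difference was -0.92, and that of STING1, an adaptor for DNA sensing, was -0.56. DHX58, a relative of RIGI, was at -0.53 and the DNA sensor CGAS at 0.49. The list's median was 0.03 and its mean -0.10.

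Brakes of the pathway had 0 of 7 past 1.5-fold, against 2.06% of all genes lower and 1.25% higher, and a median of 0.16. The phosphatase PTPN6 was at 0.57, PIAS4 at 0.34, PIAS1 at 0.16 and PTPN1 at 0.15. SOCS1, an inhibitor of JAK kinases, was at 0.17, and SOCS3 at -0.11.

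A further list of 34 measured interferon-stimulated genes had 26 below 0, against 52.7% of all genes, but a median of -0.07. Of the 34, 2 were at least 1.5-fold lower, against 2.06% of all genes. They were TRIM21, an antibody receptor and ubiquitin ligase (-0.62), and LAMP3, a lysosomal membrane protein (-0.59). SLFN5 was at -0.49 and NMI at -0.46. Among its genes for antigen presentation, HLA-B was at 0.04, B2M at 0.04, PSMB8 at -0.07 and PSMB9 at -0.28, all named after their values were seen.

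**Figure D5:**
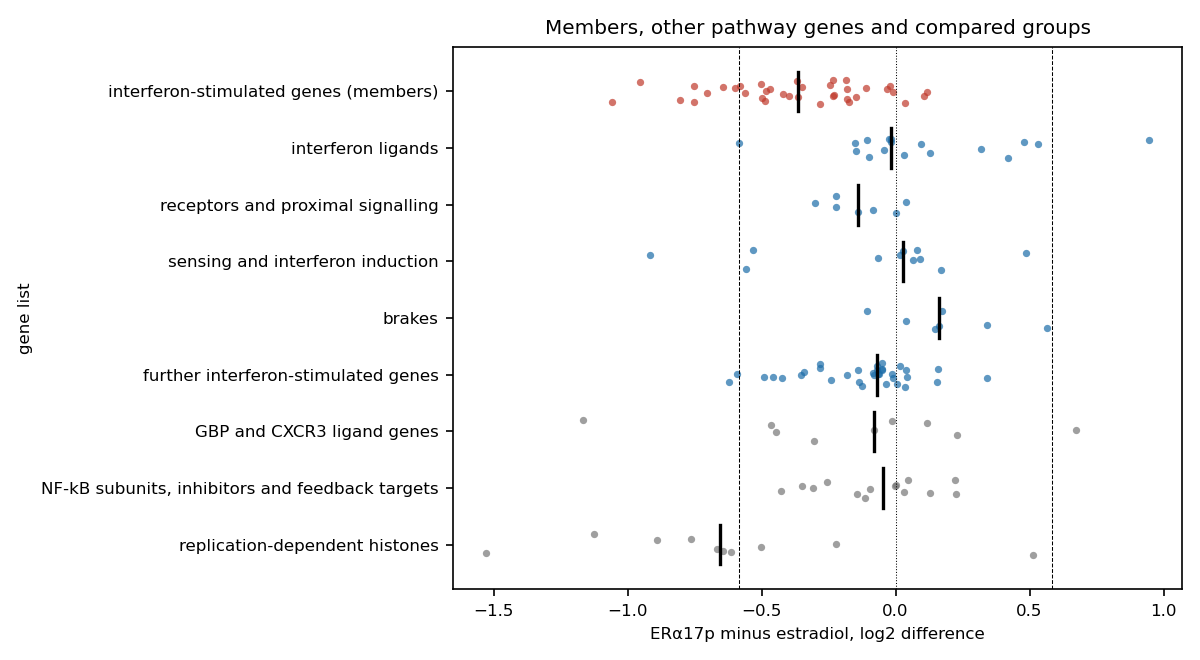
ERα17p minus estradiol (x axis, log2 difference) of each measured gene in the member list (red), the 5 pathway lists (blue) and 3 compared groups (grey); black bars are medians, dashed lines 1.5-fold, and points are spread vertically for visibility. The members' median is -0.36, that of the further interferon-stimulated genes -0.07, and that of the histones -0.65.

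Compared groups differed from the members in different ways, with no test possible. The counts below stand beside 2.06% of all genes lower and 1.25% higher in ERα17p minus estradiol. GBP and CXCR3 ligand genes, typical of interferon gamma, had 1 of 9 at least 1.5-fold lower and 1 higher in ERα17p minus estradiol, with a median of -0.08. The chemokine CXCL11 was at 0.09 with ERα17p, 1.25 with estradiol and -0.62 with vehicle, a difference of -1.17 between the treated arrays, and CXCL9 was at 0.67. NF-kB subunits, inhibitors and feedback targets had 0 of 14 past 1.5-fold and a median of -0.05, with CYLD at -0.43 and TNFAIP2 at -0.35. Replication-dependent histones had 7 of 10 lower and 0 higher, with a median of -0.65, led by H2AC6 (-1.53) and H2BC21 (-1.13). Histone genes are near copies too. A negative ERα17p minus estradiol difference was therefore not limited to interferon-stimulated genes, though the array levels were unlike. The histones had a median centred value of -0.57 with ERα17p and 0.04 with estradiol. For the members these medians were 0.04 and 0.38. 

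The 3 lists of cell markers were read beside these. In ERα17p minus estradiol, 0 markers passed 1.5-fold, against 2.06% of all genes lower and 1.25% higher. All 6 luminal epithelial markers were below 0, as were 52.7% of all genes and most members. Their median was -0.13 and their range -0.36 to -0.03. Single probe sets of CDH1, ESR1, GATA3 and FOXA1 lay on both sides of 0. The 6 mesenchymal markers had a median of 0.00 and the 9 measured blood cell markers lay between -0.31 and 0.39. Against vehicle, SNAI2, a mesenchymal transcription factor, was 2.08 higher with ERα17p and 1.84 higher with estradiol. The mesenchymal factor ZEB1 and LYZ, a lysozyme of myeloid cells, were each 0.78 higher with ERα17p. The epithelial adhesion protein EPCAM was 0.78 higher with estradiol, and CD14, a myeloid surface receptor, 0.75 higher. The other markers did not pass 1.5-fold. Their part in the results was not tested.

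Against vehicle, most interferon-stimulated genes were higher with estradiol. The same estradiol array enters ERα17p minus estradiol with the opposite sign. High values on it bear on both comparisons and on the order of the arrays, so these are not separate results. Of 37 members, 21 were at least 1.5-fold higher in estradiol minus vehicle, against 10.4% of all genes, and 1 was lower, against 8.25%. Of the members, 30 were above 0, against 50.4% of all genes, and 12 were at least 2-fold higher, against 3.82%. The median was 0.62, and that of all genes 0.00. All 4 IFIT genes, all 4 OAS genes and both MX genes were among the 21. Beside this, the labelling spikes were at 2.03 and the hybridisation spikes were at -0.74 in estradiol minus vehicle. Their part in the result was not tested.

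The members farthest from vehicle with estradiol had low values on the vehicle array. They were picked by that difference, and the vehicle array had the widest spread, so these low values are not a separate result. TRIM22, at 0.70 on the estradiol array and -2.10 on the vehicle array, was 2.80 higher. IFI27, a mitochondrial protein, was at 0.01 on the estradiol array and -2.06 on the vehicle array, a difference of 2.06. DDX60 and SAMD9L were 2.05 and 1.98 higher. IRF7 went the other way, at -0.25 on the estradiol array and 1.17 on the vehicle array, a difference of -1.42. Other members at least 1.5-fold higher were MX2 (1.47), IFIT2 (1.41), OAS1 (1.38), OASL (1.30), OAS2 (1.23), IFIT1 (1.16), XAF1 (1.04) and SAMD9 (1.03). They were joined by CMPK2 (0.95), IFIT3 (0.89), MX1 (0.82), ISG20 (0.69), OAS3 (0.67), IFIH1 (0.62), HERC5 (0.62), IFI44 (0.61) and IFIT5 (0.60). IFI44 was at -0.43 without its probe set that matches several transcripts.

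ERα17p minus vehicle showed the same direction for most members, with fewer past 1.5-fold than in estradiol minus vehicle. Of 37 members, 11 were at least 1.5-fold higher, against 9.27% of all genes, and 1 was lower, against 8.53%, with a median of 0.39. Of the members, 29 were above 0, against 50.2% of all genes, and 4 were at least 2-fold higher, against 3.21%. TRIM22 was at 0.10 on the ERα17p array and -2.10 on the vehicle array, 2.20 higher. IFI27 was at 0.04 on the ERα17p array and -2.06 on the vehicle array, 2.10 higher, and DDX60 was 1.34 higher. IRF7 was at -0.36 on the ERα17p array and 1.17 on the vehicle array, a difference of -1.53. SAMD9L (1.03), MX2 (0.98), IFIT2 (0.92), OAS2 (0.67), CMPK2 (0.67), OAS3 (0.66), SAMD9 (0.63) and OAS1 (0.63) made up the 11. Probe sets went both ways for OAS3, at 1.54 and -0.22, and for OAS2, at 0.97, 0.67 and -0.12. In ERα17p minus vehicle, IFIT1 was at 0.10 and MX1 at 0.07. In the same comparison the labelling spikes were at 2.04 and the hybridisation spikes at -0.93.

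Both comparisons use the same vehicle array, so their likeness is not a result. Set side by side, the members fell into patterns named after the values were seen. IFIT1 was at 0.10 in ERα17p minus vehicle and 1.16 in estradiol minus vehicle, and MX1 at 0.07 and 0.82. In IFI27 and OAS3 the treated arrays were level, at 2.10 and 2.06 for IFI27 and at 0.66 and 0.67 for OAS3. The OAS3 values are medians of 2 probe sets that disagreed, 1 at 1.54 and 1.78 and the other at -0.22 and -0.44. ISG15, USP18, IFI6, IFI35 and LGALS3BP were below 0 in both, between -0.56 and -0.09, none past 1.5-fold. Against the level used for centring instead of the vehicle array, 12 members were at least 1.5-fold higher with estradiol, against 1.28% of all genes, and 0 with ERα17p, against 0.496%.

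Of the 17 interferon genes, 3 were at least 1.5-fold higher in ERα17p minus vehicle, against 9.27% of all genes, and 0 in estradiol minus vehicle, against 10.4%. The 3 were IFNA7 at 0.85, IFNA10 at 0.73 and IFNA1 at 0.60, each from 1 probe set. IFNB1 was at 0.46 in ERα17p minus vehicle and 0.47 in estradiol minus vehicle. Of the 7 receptor and signalling genes, 1 was at least 1.5-fold higher in ERα17p minus vehicle, against 9.27% of all genes, IRF1 at 0.65. In estradiol minus vehicle 3 were, against 10.4% of all genes, namely IFNAR1 at 0.81, IRF1 at 0.65 and IFNLR1 at 0.65. Of the 34 further interferon-stimulated genes, 12 were at least 1.5-fold higher in ERα17p minus vehicle, against 9.27% of all genes, and 1 lower, against 8.53%. In estradiol minus vehicle 15 were higher, against 10.4% of all genes, and 1 lower, against 8.25%. TNFSF10, which encodes the death ligand TRAIL, was at 3.06 in ERα17p minus vehicle and 2.72 in estradiol minus vehicle, and HLA-B at 1.34 and 1.30. GBP1, an interferon-induced GTPase among the compared genes, was at 2.68 and 2.45. These 3 genes were named after their values were seen. Of the 9 GBP and CXCR3 ligand genes, 5 were at least 1.5-fold higher in ERα17p minus vehicle (median 0.64), against 9.27% of all genes. In estradiol minus vehicle 5 were also higher (median 1.11), against 10.4% of all genes. Higher values against vehicle were therefore not limited to the members.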

How the data were processed

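Values came from 1 deposited table with 54675 probe sets and 3 arrays. They are read as log2 values because RMA, which returns that scale, is the method in the submitters' processing notes (version not stated). How the authors centred each probe set is not stated either, and between 7.08% and 8.54% of values per array are exactly 0.

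Platform annotation paired 41097 probe sets with 1 symbol, 1801 with several (not used) and left 11777 unnamed. This gave 19775 genes, of which 19735 matched RefSeq's genes for GRCh38.p14, with 0 symbols updated. A gene's value was the median of its probe sets on an array, and differences are of these medians. There was no test, since each group had 1 array. The scripts (Python 3.11.15, numpy 2.4.6, pandas 2.3.3) were tested on simulated data. Every member was to be named, with values on every array for members past 1.5-fold in ERα17p minus estradiol and for the 4 farthest from vehicle per agent. Up to 4 genes per pathway list and 2 per compared group were also named by largest ERα17p minus estradiol, and IFNB1, IFNAR1, IFNAR2, JAK1, TYK2, IRF1, SOCS1 and SOCS3 always. The members and lists were chosen with earlier results of these data known. Alternatives were other summaries of probe sets, other scalings, other thresholds, and the level used for centring as the comparator instead of vehicle. Of the pathway lists, 8 of 84 genes were not analysed here.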

Additional observations from a re-analysis of the deposited data

How the results depend on the processing

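The sign of the members' median held under every setting tried in all 3 comparisons: mean of probe sets, median of probe set differences, quantile normalisation, equal SD, genes with at least 2 probe sets, no probe sets that match several transcripts, and no farthest member. ERα17p minus estradiol had a median between -0.47 and -0.29. Its count of members at least 1.5-fold lower was 13 with arrays scaled to equal SD, 14 after quantile normalisation (both bring in the vehicle array's spread), 3 among the 19 members with 2 or more probe sets, and 1 at 2-fold. Pathway genes lower in that comparison numbered 4, or 7 with either scaling and 1 among genes with 2 or more probe sets. GBP and CXCR3 ligand genes lower numbered 2 with equal SD and 3 after quantile normalisation, against 1. Pathway genes higher numbered 1, or 5 with equal SD, 4 after quantile normalisation, and 0 with 2 or more probe sets or when probe sets matching several transcripts were left out. Histones lower numbered 2 of 2 genes with 2 or more probe sets, and 2 of 6 when probe sets matching several transcripts were left out, against 7 of 10. Of all genes, 2.06% were lower, or 4.75% with equal SD and 4.53% after quantile normalisation. The share was 0.846% with 2 or more probe sets and 2.40% without probe sets matching several transcripts. All genes higher made up 1.25%, or 3.54%, 3.15%, 0.418% and 1.75% in the same order of settings.

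For estradiol minus vehicle, members higher numbered 12 at 2-fold, 13 among genes with 2 or more probe sets, and 12 against the level used for centring (median 0.38). The shares of all genes were 3.82%, 10.3% and 1.28%. For ERα17p minus vehicle members higher numbered 4, 6 and 0 (median 0.041), against 3.21%, 9.89% and 0.496% of all genes. Members lower in ERα17p minus vehicle numbered 3 with equal SD, against 7.68% of all genes, and 2 after quantile normalisation, against 7.44%. Both counts lie near those shares and are not a result about the members. In either vehicle comparison, members lower numbered 0 against the level used for centring and with 2 or more probe sets. They also numbered 0 when probe sets matching several transcripts were left out, which drops IRF7. In those settings between 0.516% and 8.49% of all genes were lower. IFI44 was at -0.43 in estradiol minus vehicle without such probe sets, against 0.61. The stricter motif was in 14 member promoters. The cause of these shifts was not tested. The 3 arrays and unknown signal over background limit every value. No paired analysis was possible because each group has 1 array.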
